A study of Homo sapiens with 6 samples.

Results

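Of the 67060 genes in the count table, 9 encode the receptor tyrosine kinases, GDNF family coreceptors and neurotrophin receptors that are best known from neuroblastoma. They were chosen by name, with earlier results of these data known, and no threshold on their values was used. The kinases are *ALK*, *RET*, *KIT*, *NTRK2* and *NTRK3*, the coreceptors are *GFRA1*, *GFRA2* and *GFRA3*, and *NGFR* is the p75 neurotrophin receptor. All 9 genes were found in the table and all 9 were among the 24500 genes that passed the filter on low counts.

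RET binds GDNF family ligands together with a coreceptor of the GFRα family, which is anchored to the membrane by a lipid. GFRα1 prefers GDNF, GFRα2 prefers neurturin and GFRα3 prefers artemin. TrkB, encoded by *NTRK2*, is the receptor for BDNF, and TrkC, encoded by *NTRK3*, is the receptor for neurotrophin-3, while p75 binds every neurotrophin and lacks a kinase domain. ALK is a kinase that is activated by mutation or amplification in some neuroblastomas, and KIT is the receptor for stem cell factor. These receptors guide the survival, growth and differentiation of sympathetic and sensory neurons, the lineage from which neuroblastoma arises.

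RNA sequencing was analysed for SH-SY5Y cells, a human neuroblastoma line that the labels call a neuronal progenitor. Cells were given 0.5 µl of adenovirus and were collected after 24 h. The control group (3 libraries, numbered 1, 3 and 4) received Ad CMV GFP, and the overexpression group (3 libraries, numbered 2, 3 and 4) received Ad CMV 3xFlag-*Esrrg*, which carries the mouse coding sequence for ERRγ behind the CMV promoter. Both groups were thus infected, no uninfected cells are part of the comparison, and all libraries come from 1 cell line. The groups are called the GFP and the *Esrrg* libraries below.

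Between 24969759 and 29700980 reads per GFP library and between 26513620 and 40859666 per *Esrrg* library were counted on genes. Reads counted on the human *ESRRG* gene, where transcripts of the cells and of the mouse insert cannot be told apart, were higher with *Esrrg* (log2 fold change 3.02, standard error 0.14). Reads assigned to no gene made up 51.3% to 52.2% of the GFP libraries and 46.6%, 31.6% and 29.5% of *Esrrg* replicates 2, 3 and 4, so this share differed between the groups and within the *Esrrg* group. Of 12 adrenergic neuroblastoma markers, 10 had counts. *HAND2* was the highest of them, at 367 CPM (counts scaled to a common library size) with GFP and 264 with *Esrrg*. *TH*, which encodes tyrosine hydroxylase, and *CHGA* were listed at 0 in every library. All exon sequence of *CHGA*, but none of that of *TH*, is also present in the alternate contigs of the genome assembly. The 12 mesenchymal markers summed to between 8123 and 8356 CPM with GFP and between 8313 and 9330 with *Esrrg*, with *COL3A1* highest with GFP, *FN1* highest with *Esrrg* and *POSTN* at 0. The adrenergic markers summed to between 853 and 911 CPM with GFP and between 605 and 807 with *Esrrg*. Of the 10 tested, 4 were called lower and 2 higher, and of 11 mesenchymal markers tested 1 was called lower and 2 higher. Called genes thus made up 60% of the tested adrenergic and 27.3% of the tested mesenchymal markers, against 34.1% of all tested genes. The 7 Schwann lineage markers summed to at most 8.05 CPM in any library, with *FOXD3* at 0, and 1 of the 5 tested (20%) was called lower. In bulk RNA, fewer cells with a transcript and less transcript per cell cannot be told apart, and the part of these marker shifts in the results was not tested.

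The sequences upstream of 4 of the genes are shown because 2 of them fell (*ALK*, *RET*) and 2 rose (*NTRK3*, *GFRA3*) with *Esrrg*. Each is the stretch of 250 bases before the RefSeq start on GRCh38.p14, read 5′ to 3′ on the gene's own strand. It lies at chr2:29921587-29921836 for *ALK* (minus strand), chr10:43076819-43077068 for *RET* (plus strand), chr15:88256740-88256989 for *NTRK3* (minus strand) and chr5:138274622-138274871 for *GFRA3* (minus strand). Capitals mark matches to the E-box CANNTG, the motif of basic helix-loop-helix factors such as HAND2.
ALK: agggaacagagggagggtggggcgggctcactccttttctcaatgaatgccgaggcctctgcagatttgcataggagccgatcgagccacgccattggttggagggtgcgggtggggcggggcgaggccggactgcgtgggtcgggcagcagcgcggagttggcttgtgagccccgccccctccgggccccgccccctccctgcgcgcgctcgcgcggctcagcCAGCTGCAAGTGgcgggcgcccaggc
RET: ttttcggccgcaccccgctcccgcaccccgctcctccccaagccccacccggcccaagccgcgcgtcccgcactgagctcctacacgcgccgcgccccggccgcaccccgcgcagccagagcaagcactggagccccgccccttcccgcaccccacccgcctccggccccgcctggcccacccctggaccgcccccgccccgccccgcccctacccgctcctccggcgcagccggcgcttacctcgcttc
NTRK3: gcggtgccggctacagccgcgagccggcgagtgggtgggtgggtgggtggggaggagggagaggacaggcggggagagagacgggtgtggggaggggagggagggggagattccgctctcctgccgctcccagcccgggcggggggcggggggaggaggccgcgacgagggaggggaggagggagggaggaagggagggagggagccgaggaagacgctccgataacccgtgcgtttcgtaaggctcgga
GFRA3: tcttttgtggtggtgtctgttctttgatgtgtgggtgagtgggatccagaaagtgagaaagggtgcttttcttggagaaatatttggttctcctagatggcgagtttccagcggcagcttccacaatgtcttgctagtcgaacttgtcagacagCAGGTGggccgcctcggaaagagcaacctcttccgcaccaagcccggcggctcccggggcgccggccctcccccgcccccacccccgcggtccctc
The 4 stretches differed in base composition, with 71.6% G and C for *ALK*, 79.6% for *RET*, 73.2% for *NTRK3* and 59.2% for *GFRA3*. They held 24, 33, 23 and 14 CpG dinucleotides in the same order. The ERR response element TNAAGGTCA, searched on both strands, was absent from these stretches and from the others of the 15 RefSeq windows that were found for 7 of the 9 genes. Its shorter core AAGGTCA, which every longer match contains, was absent from them too. Among all 35116 windows of that length, 0.854% held the longer motif and 3.44% the core. The E-box, by contrast, was in 61.8% of all windows and in 10 of the 15. A match of letters is not a binding site, and no match says only that these letters are not in this window.

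With *Esrrg*, 5 of the 9 receptor genes were lower and 2 were higher. The lower genes were *NGFR*, *ALK*, *KIT*, *GFRA2* and *RET*, and the higher genes were *GFRA3* and *NTRK3*. *NTRK2* and *GFRA1* did not pass. A gene was called at a Benjamini-Hochberg adjusted p below 0.05 over all genes tested, from edgeR's quasi-likelihood test, together with a fold change of at least 1.5. Among all tested genes 16.8% were called lower and 17.3% higher, which together is 34.1%. The median log2 fold change was -1.22 over the 9 genes and -0.10 over all tested genes. For the 7 called genes every *Esrrg* library lay on the same side of every GFP library, which held for 58.1% of all tested genes. All 7 calls held, with the same direction, under each of the 17 alternative settings of filter, scaling, test, covariate and libraries. The setting without a fold cutoff is the same fit with a looser rule, so it could not lose a call.

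**Figure D1:**
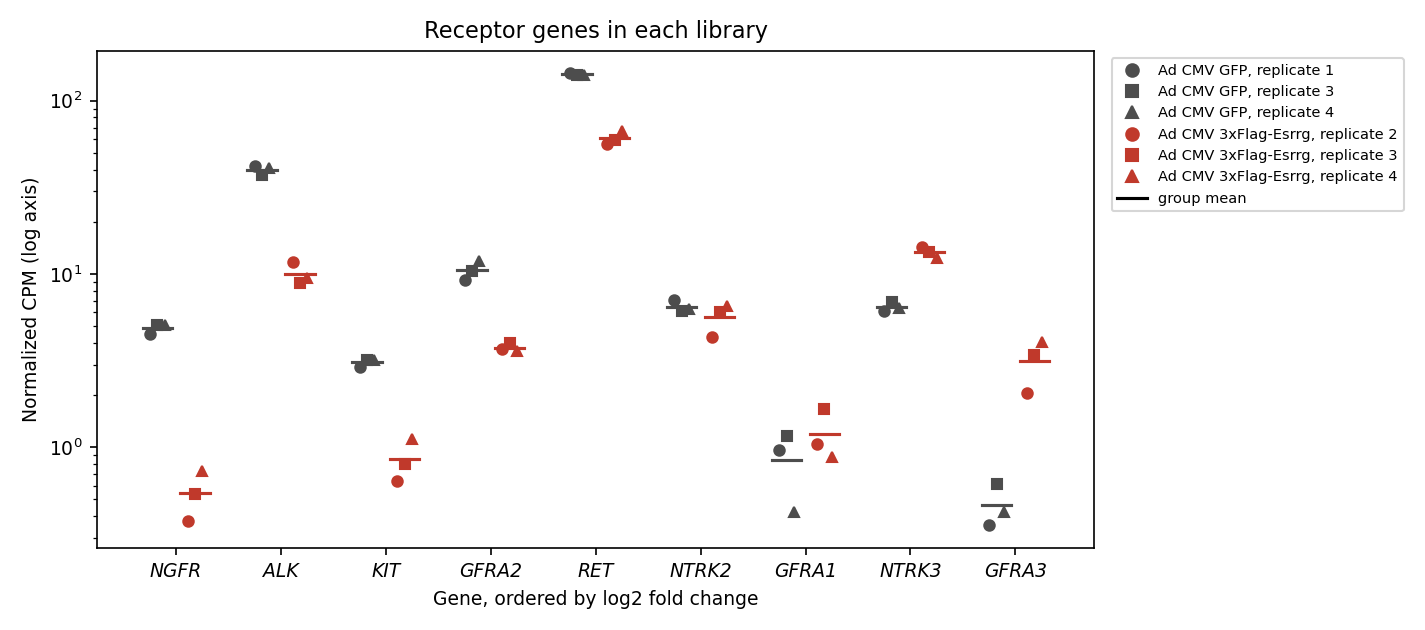
Normalized CPM (log axis) of the 9 receptor genes in each library, ordered by log2 fold change, with grey symbols for Ad CMV GFP, red symbols for Ad CMV 3xFlag-Esrrg and bars for group means (n = 3). The groups are separate for NGFR, ALK, KIT, GFRA2 and RET, which are lower with Esrrg, and for NTRK3 and GFRA3, which are higher, and they overlap for NTRK2 and GFRA1.

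Among the kinases, *RET* (chromosome 10, 43077064 to 43130351 on GRCh38) had the highest level per exon length. It had 4055, 4370 and 4656 counts in GFP replicates 1, 3 and 4 and 1508, 2006 and 2268 counts in *Esrrg* replicates 2, 3 and 4. This came to 142 ± 1.68 CPM (SD, n = 3) with GFP and 60.9 ± 5.19 (SD, n = 3) with *Esrrg*. Every *Esrrg* library was thus far below every GFP library, and it was 2.33-fold lower (log2 fold change -1.22, standard error 0.096, adjusted p = 1.4e-05 from edgeR).

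*ALK* (chromosome 2, 29192774 to 29921586) fell further. It had 1180, 1152 and 1351 counts in GFP replicates 1, 3 and 4, and 315, 300 and 323 counts in *Esrrg* replicates 2, 3 and 4. In CPM this was 40.0 ± 2.42 (SD, n = 3) against 10.1 ± 1.52 (SD, n = 3). The 3 *Esrrg* values were close together and well apart from the GFP values, a 3.98-fold decrease (log2 fold change -1.99, standard error 0.12, adjusted p = 3.4e-06 from edgeR). Measured within each library as counts per exon base, *ALK* stood at 0.342 ± 0.0189 times *RET* with GFP and at 0.203 ± 0.0444 times *RET* with *Esrrg* (SD, n = 3). This ratio does not depend on the scaling of the libraries. Exons of *CLIP4* on the other strand cover 1.83% of the exon bases of *ALK*.

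*KIT* (chromosome 4, 54657267 to 54740783) was a low transcript in these cells. Its counts were 82, 99 and 105 in GFP replicates 1, 3 and 4 and 17, 27 and 38 in *Esrrg* replicates 2, 3 and 4. In CPM the GFP libraries lay between 2.91 and 3.20 and the *Esrrg* libraries between 0.636 and 1.12, with no overlap. *KIT* was 3.58-fold lower (log2 fold change -1.84, standard error 0.23, adjusted p = 1.7e-04 from edgeR).

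The Trk kinases did not follow the kinases above. *NTRK3* (chromosome 15, 87859751 to 88256791) had 173, 213 and 211 counts in GFP replicates 1, 3 and 4, and 384, 452 and 424 counts in *Esrrg* replicates 2, 3 and 4. This came to CPM of 6.47 ± 0.383 (SD, n = 3) and 13.4 ± 0.960 (SD, n = 3), a 2.07-fold increase (log2 fold change 1.05, standard error 0.12, adjusted p = 9.8e-05 from edgeR). All 3 *Esrrg* libraries were above all GFP libraries, and replicate 2, whose share of reads assigned to no gene was nearest to that of the controls, was the highest of them at 14.4 CPM. Per exon base and within each library, *NTRK3* stood at 1.24 ± 0.160 times *NTRK2* with GFP and at 3.07 ± 0.940 times *NTRK2* with *Esrrg* (SD, n = 3). Which of them stood higher depended on the exon length used. With the length of the reference transcript (MANE Select), *NTRK2* stood above *NTRK3* with GFP, at 0.748 and 0.323 CPM per kilobase. With *Esrrg* they were close on that length, at 0.651 and 0.670, and their libraries overlapped.

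*NTRK2* (chromosome 9, 84668375 to 85095751) had 7.06, 6.11 and 6.28 normalized CPM in GFP replicates 1, 3 and 4, and 4.30, 6.06 and 6.57 in *Esrrg* replicates 2, 3 and 4. Replicate 2 lay well below the controls, replicate 3 just below the lowest of them, and replicate 4 within their range. The log2 fold change was -0.19, with a 95% interval from -0.57 to 0.19 (adjusted p = 0.38 from edgeR), so a change of 1.5-fold in either direction lay outside the interval. The direction was not stable. Without *Esrrg* replicate 2 the log2 fold change was 0.073, and with the share of reads assigned to no gene as a covariate *NTRK2* was called lower (-0.76, adjusted p = 0.012). With the replicate number as a block and a correction for GC content and length it was 0.42 (adjusted p = 0.0044 from edgeR), below the fold cutoff.

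*LTK*, the closest relative of *ALK*, was lower, with 4.14 ± 0.471 CPM against 2.32 ± 0.443 (SD, n = 3; log2 fold change -0.83, standard error 0.19, adjusted p = 0.0053 from edgeR).

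**Figure D2:**
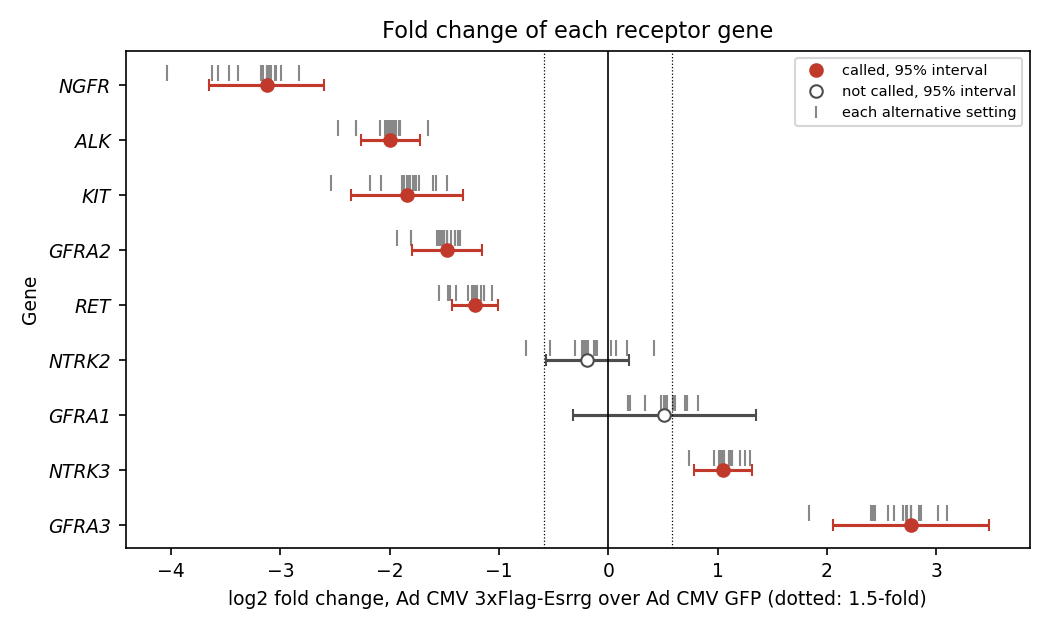
Log2 fold change of each receptor gene, Ad CMV 3xFlag-Esrrg over Ad CMV GFP, with its 95% interval (filled red where called, open where not), grey ticks for the value under each alternative setting, and dotted lines at 1.5-fold. The intervals of the 7 called genes lie outside the dotted lines, from -3.12 for NGFR to 2.76 for GFRA3, and those of NTRK2 and GFRA1 include 0.

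The 3 coreceptors of RET went separate ways. *GFRA2* (chromosome 8, 21690398 to 21812357), the neurturin coreceptor, had the highest level per exon length of them with GFP. It had 259, 323 and 391 counts in GFP replicates 1, 3 and 4, and 98, 135 and 123 counts in *Esrrg* replicates 2, 3 and 4. No *Esrrg* library came near the lowest GFP library. *GFRA2* was 2.79-fold lower (log2 fold change -1.48, standard error 0.14, adjusted p = 4.7e-05 from edgeR).

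*GFRA3* (chromosome 5, 138252380 to 138274621), the artemin coreceptor, was low with GFP, at 10, 19 and 14 counts in replicates 1, 3 and 4. It had 55, 114 and 138 counts in *Esrrg* replicates 2, 3 and 4. The increase was 6.80-fold (log2 fold change 2.76, standard error 0.32, adjusted p = 1.1e-04 from edgeR). *Esrrg* replicate 2 was the lowest of its group at 2.06 CPM, against 3.39 and 4.05 in replicates 3 and 4, and was still above the highest GFP library at 0.614 CPM. With the share of reads assigned to no gene as a covariate the log2 fold change of *GFRA3* was 1.83 (adjusted p = 6.6e-04 from edgeR).

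*GFRA1* (chromosome 10, 116056925 to 116276803), the GDNF coreceptor, had 27, 36 and 14 counts in GFP replicates 1, 3 and 4, and 28, 56 and 30 counts in *Esrrg* replicates 2, 3 and 4. The groups overlapped. The log2 fold change was 0.51 with a 95% interval from -0.32 to 1.35 (adjusted p = 0.29 from edgeR), an interval that includes both no change and a rise above 1.5-fold. A difference was thus not detectable at this depth. Exons of an antisense gene cover 3.95% of the exon bases of *GFRA1*, and that gene was listed at 0 in every library.

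Per exon base and within each library, *GFRA3* stood at 0.129 ± 0.0365 times *GFRA2* with GFP and at 2.45 ± 0.815 times *GFRA2* with *Esrrg* (SD, n = 3). The ratio was below 1 in each GFP library, from 0.104 to 0.171, and above 1 in each *Esrrg* library, from 1.63 to 3.26. The coreceptor with the highest level per exon base was thus *GFRA2* in the control libraries and *GFRA3* in the *Esrrg* libraries.

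*NGFR* (chromosome 17, 49495293 to 49515008), the p75 receptor, had the largest decrease of the 9 genes. It had 127, 158 and 167 counts in GFP replicates 1, 3 and 4, and 10, 18 and 25 counts in *Esrrg* replicates 2, 3 and 4. This came to 4.89 ± 0.332 CPM (SD, n = 3) with GFP and 0.548 ± 0.180 CPM (SD, n = 3) with *Esrrg*, and the groups were far apart. *NGFR* was 8.72-fold lower (log2 fold change -3.12, standard error 0.24, adjusted p = 1.2e-05 from edgeR).

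Exons of other genes on the other strand cover 27.2% of the exon bases of *NGFR*. These genes, *NGFR-AS1* and an unnamed gene, had at most 5 counts in any library, and both were at 0 in each *Esrrg* library. The strand setting of the counting is not given in the sources used here, so reads from these transcripts cannot be told apart with certainty. Per exon base and within each library, *NGFR* stood at 4.89 ± 0.201 times *NTRK3* with GFP and at 0.269 ± 0.107 times *NTRK3* with *Esrrg* (SD, n = 3).

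Levels of different genes were compared as CPM per kilobase of exon. With GFP the order was *RET* (15.8 ± 0.187), *ALK* (5.41 ± 0.328), *GFRA2* (1.81 ± 0.227), *NGFR* (1.18 ± 0.0801), *KIT* (0.273 ± 0.0142), *NTRK3* (0.242 ± 0.0143), *GFRA3* (0.233 ± 0.0677), *NTRK2* (0.196 ± 0.0152) and *GFRA1* (0.0796 ± 0.0359), as mean ± SD of 3 libraries. In the stretch from *KIT* to *NTRK2* each gene's libraries overlapped with those of the next, and the other neighbours were separate. With *Esrrg* the order was *RET* (6.78 ± 0.579), *GFRA3* (1.59 ± 0.510), *ALK* (1.36 ± 0.206), *GFRA2* (0.651 ± 0.0376), *NTRK3* (0.501 ± 0.0359), *NTRK2* (0.170 ± 0.0359), *NGFR* (0.132 ± 0.0435), *GFRA1* (0.112 ± 0.0387) and *KIT* (0.0751 ± 0.0215). *GFRA3* overlapped with *ALK*, and from *NTRK2* to *KIT* each gene overlapped with the next. *RET* led in both groups. It made up 62.6% ± 0.871 of the summed level of the 9 genes with GFP and 59.6% ± 0.668 with *Esrrg* (SD, n = 3). The share of *ALK* was 21.4% ± 1.12 with GFP and 12.1% ± 2.73 with *Esrrg*, and that of *GFRA3* was 0.926% ± 0.278 and 13.8% ± 3.46. Merged exons include alternative ends that these cells may not use. With the length of the reference transcript (MANE Select), *NTRK2* stood above *KIT*, *NTRK3* and *GFRA3* with GFP, and *ALK* above *GFRA3* with *Esrrg*.

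**Figure D3:**
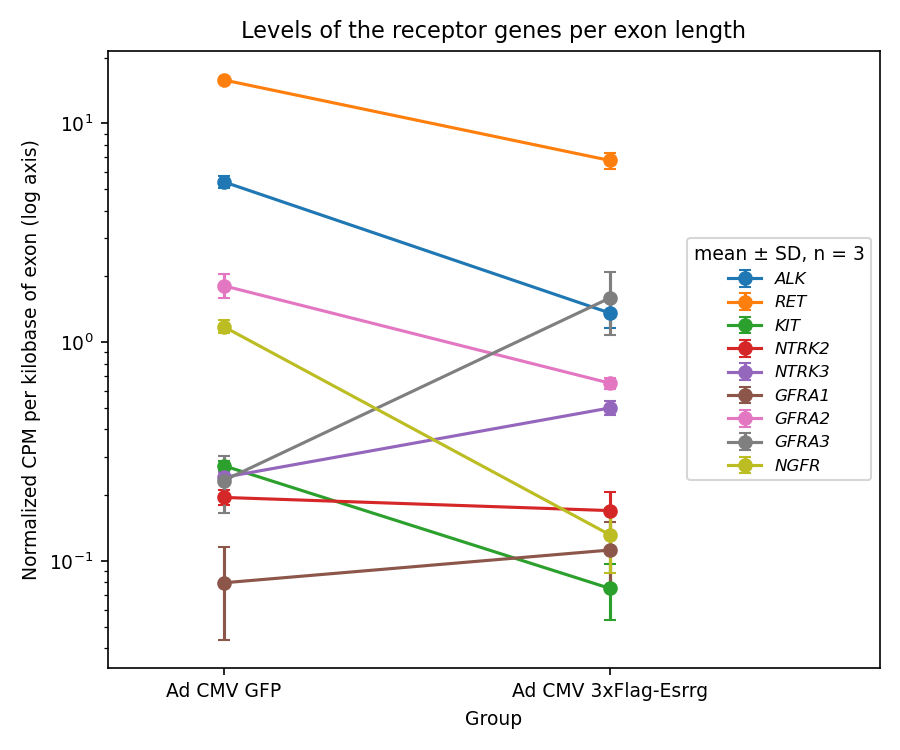
Normalized CPM per kilobase of merged exon (log axis) for the 9 receptor genes in each group, as mean ± SD of 3 libraries. RET leads in both groups, NGFR falls from 1.18 to 0.132, and GFRA3 rises from 0.233 to 1.59, above GFRA2.

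The ligands of these receptors were measured in the same cells. Of 14 ligand genes, 11 were tested, 4 were higher, none was lower and 7 were not called. Called genes made up 36.4% of the tested ligands, near the 34.1% of all tested genes. *GDF15*, whose receptor GFRAL signals through RET, rose from 10.7 ± 1.29 to 69.8 ± 15.2 CPM (SD, n = 3; log2 fold change 2.71, standard error 0.17, adjusted p = 3.5e-06 from edgeR), while *GFRAL* itself was listed at 0 in every library. *GDF15* was called under each of the 17 alternative settings.

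*MDK*, the gene for midkine, and *PSPN*, the gene for persephin, had log2 fold changes of 0.76 (standard error 0.18) and 0.71 (standard error 0.16). Both calls were lost when libraries were scaled by size alone and once GC content and length were corrected for. They were also lost in the test against a 1.5-fold threshold and with the share of reads assigned to no gene as a covariate. With that covariate the log2 fold changes were 0.041 for *MDK* and 0.24 for *PSPN*. *GFRA4*, the coreceptor of persephin, had at most 2 counts in any library and was not tested. *BDNF*, the ligand of TrkB, went from 25.0 ± 2.42 to 17.4 ± 0.760 CPM (SD, n = 3), a difference of -0.52 on the log2 scale (standard error 0.11, adjusted p = 0.0024 from edgeR) that was below the fold cutoff. *PTN*, the gene for pleiotrophin, had -0.31 (adjusted p = 0.023 from edgeR), also below the cutoff. *KITLG*, the gene for stem cell factor, had 70.0 ± 3.04 and 71.5 ± 9.88 CPM (SD, n = 3), with a 95% interval of the log2 fold change from -0.22 to 0.28.

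The preferred ligands of GFRα1, GFRα2 and GFRα3 were low. *GDNF* had 4.03 ± 0.549 CPM with GFP and 3.07 ± 0.456 with *Esrrg* (SD, n = 3), with a log2 fold change of -0.40 (adjusted p = 0.10 from edgeR). *ARTN* had 0.642 ± 0.276 and 0.940 ± 0.113 CPM, and *NRTN* 0.582 ± 0.256 and 0.787 ± 0.193 CPM, with GFP and *Esrrg* (SD, n = 3). Their log2 fold changes were 0.54 (adjusted p = 0.21) and 0.41 (adjusted p = 0.36). Of the ligands of ALK, *ALKAL2* had 1.18 ± 0.391 and 0.812 ± 0.224 CPM (SD, n = 3; log2 fold change -0.53, adjusted p = 0.20 from edgeR), and *ALKAL1* was listed at 0 in every library. *NTF3*, the gene for the ligand of TrkC, had at most 2 counts in any library and *NTF4* at most 14, and neither was tested.

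Beyond the ligands, the list of pathway genes held receptor partners, adaptors, effectors of p75 and inhibitors. Over the whole list of 63 genes, 55 were tested. Of these, 34.5% were called, near the 34.1% of all tested genes. In this list 14 were higher and 5 were lower, with a median log2 fold change of 0.03. When libraries were scaled by size alone, which moved the median of all tested genes to -0.42, 4 were higher and 17 were lower, so the balance between the directions depended on the scaling. Among the genes named here, *GDF15* and *LINGO1* were called higher and *GAB1* was called lower under every alternative, and the sign of all 19 called genes stayed the same.

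*LINGO1*, a partner of p75 in the Nogo receptor complex, had 23, 16 and 24 counts in GFP replicates 1, 3 and 4, and 117, 140 and 185 in *Esrrg* replicates 2, 3 and 4. It was higher in each *Esrrg* library (log2 fold change 2.76, standard error 0.23, adjusted p = 2.1e-05 from edgeR). *RTN4R*, the Nogo receptor, was not called (0.28, adjusted p = 0.48). *SORCS1*, of the sortilin family of receptors, and *NCAM1*, an adhesion molecule that can bind GDNF, had log2 fold changes of -0.66 and -0.63, which pass the 1.5-fold cutoff by little. Neither was called without *Esrrg* replicate 2.

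Of 22 adaptors and enzymes tested, 5 were higher and 2 were lower. *GRB2*, *DOK1*, *SHC1*, *SH2B3* and *PLCG1* had log2 fold changes from 0.69 to 0.87. *GAB1* and *FRS2*, which dock signalling proteins at activated receptors, had -0.99 (standard error 0.10) and -0.87 (standard error 0.14). Of 6 effectors of p75, *MAGED1* (1.10, standard error 0.15), *ARHGDIA* (0.90) and *BEX3* (0.68) were higher. Of 6 inhibitors, only the phosphatase gene *PTPRF* was called, with 0.82. Called genes made up 31.8% of the tested adaptors and enzymes, 50% of the effectors and 16.7% of the inhibitors. Among all tested genes this share was 34.1%. *MAGED1* was not called with the share of reads assigned to no gene as a covariate, and *ARHGDIA*, *GRB2*, *DOK1*, *SHC1*, *PLCG1* and *BEX3* were called neither under that covariate nor when libraries were scaled by size alone. *FRS2* was not called under that covariate, and *PTPRF* and *SH2B3* were called neither when libraries were scaled by size alone nor once GC content and length were corrected for.

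**Figure D4:**
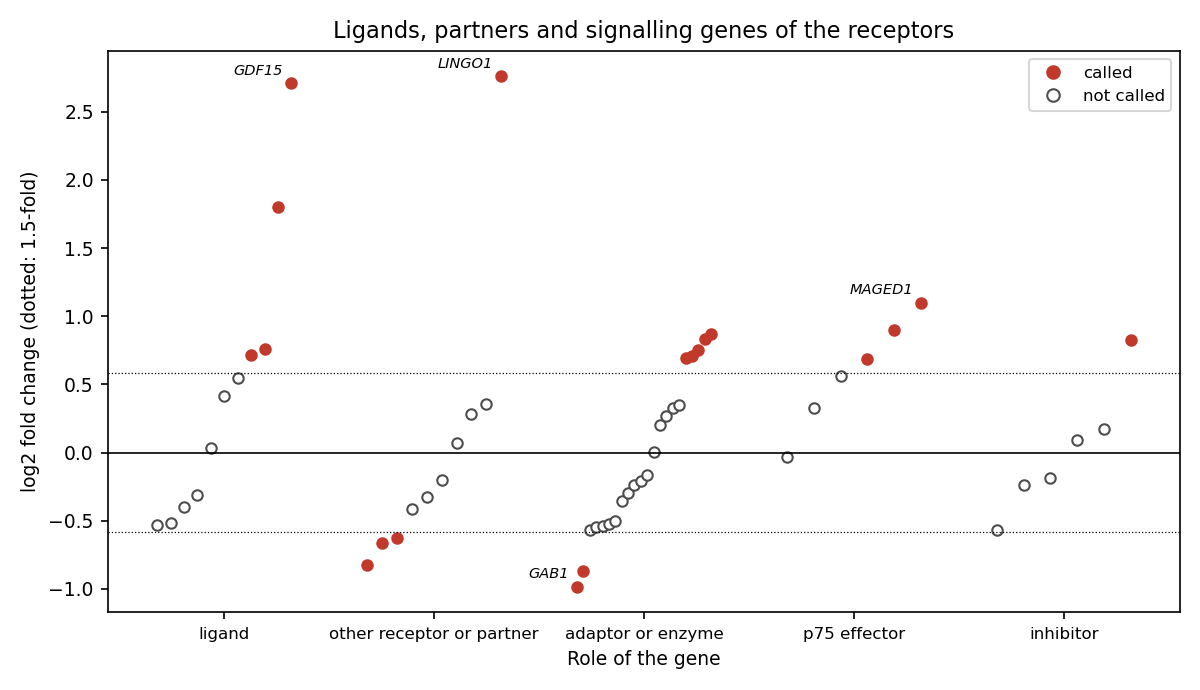
Log2 fold change (vertical axis) of the 55 tested pathway genes by role, with called genes in red, other genes open, and dotted lines at 1.5-fold. GDF15 and LINGO1 stand highest, and GAB1 is the lowest.

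The kinases were also set beside the rest of the receptor tyrosine kinase family. Of 53 other receptor tyrosine kinases 40 were tested, of which 6 were higher, 11 were lower and 23 were not called, with a median log2 fold change of -0.05. Called genes made up 42.5% of these 40. Among all tested genes this share was 34.1%, with 17.3% higher and 16.8% lower. In *ALK*, *KIT* and *RET*, 3 of the 5 kinases described above were lower. *ALK* (-1.99) and *KIT* (-1.84) had the lowest log2 fold changes of the 45 tested kinases. They were followed by *PDGFRA* (-1.53, standard error 0.099), which went from 415 ± 24.1 to 144 ± 5.31 CPM (SD, n = 3), and by *RET*. *ROR2* (-0.97), *EGFR* (-0.96), *FLT1* (-0.95), *AATK* (-0.85), *INSR* (-0.83), *INSRR* (-0.69) and *MERTK* (-0.61) were lower too.

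*EPHB1*, a receptor for ephrin-B ligands, rose most. It had 17, 10 and 21 counts in GFP replicates 1, 3 and 4 and 283, 412 and 439 in *Esrrg* replicates 2, 3 and 4 (log2 fold change 4.51, standard error 0.22, adjusted p = 7.6e-07 from edgeR). *EPHA2* (41.9 and 119 CPM, standard error of the log2 fold change 0.11) and *NTRK3* (1.05) came next, then *AXL* (0.87), *FGFR4* (0.84), *LMTK2* (0.80) and *ROS1* (0.74). *EPHB1*, *EPHA2*, *PDGFRA*, *EGFR* and *ROR2* were called under each alternative. *FGFR4* was not called without GFP replicate 4, and *MERTK* was not called without GFP replicate 3 or without *Esrrg* replicate 2 or 3. Scaling by library size alone lost the calls of *AXL*, *FGFR4*, *LMTK2* and *ROS1*. The calls of *AXL* and *FGFR4* were also lost once GC content and length were corrected for. With the share of reads assigned to no gene as a covariate, *FGFR4*, *FLT1*, *AATK*, *INSRR* and *MERTK* were not called. Counts are less certain where exons of other genes overlap. Genes on the same strand share 16.1% of the exon bases of *PDGFRA*, 7.71% of those of *SHC1* and 5.92% of those of *EPHB1*. Genes on the other strand share 26.5% of those of *ARHGDIA*, 24.1% of those of *HAND2*, 14.7% of those of *GDNF*, 13.7% of those of *AATK* and 12.8% of those of *BDNF*. For *ALKAL2*, *NCAM1*, *DOK1*, *SHC1* and *PLCG1* this share was between 6.36% and 9.21%. When libraries were scaled by size alone, 2 of the other kinases were higher and 17 were lower.

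**Figure D5:**
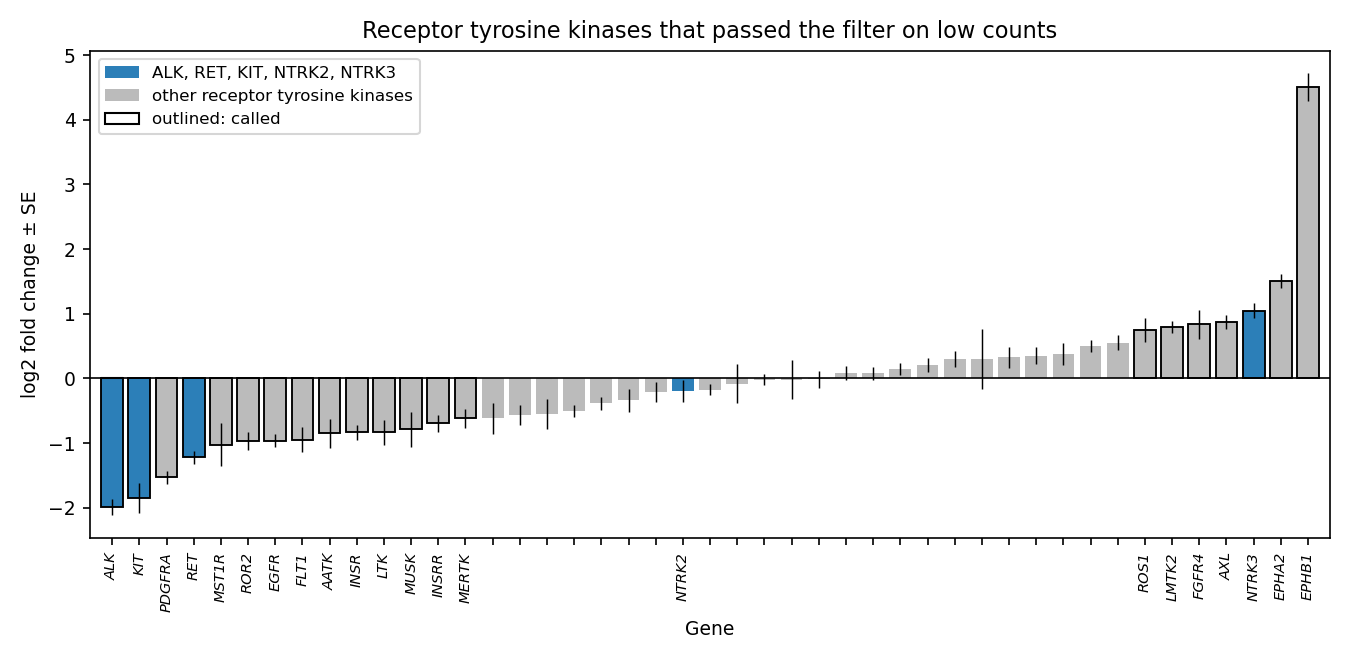
Log2 fold change ± standard error of the 45 receptor tyrosine kinase genes that passed the filter on low counts, with ALK, RET, KIT, NTRK2 and NTRK3 in blue, called genes outlined, and names under these genes only. ALK and KIT are at the low end, and NTRK3 stands near the high end, after EPHB1 and EPHA2.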

How the data were processed

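The deposited table holds raw counts, which the authors made per gene. Per the labels, the processing notes name Trim Galore 0.6.7, STAR 2.7.9a, HTSeq 0.11.3, DESeq2 and the build GRCh38, for libraries of total RNA depleted of ribosomal RNA and made with a directional kit. The annotation release and the strand setting are not given in the sources used here. Of 67060 genes, 90.1% matched GENCODE release 44 by identifier, which gave symbols, positions and exon lengths.

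Counts were filtered with filterByExpr (24500 genes), scaled by TMM and tested with the quasi-likelihood test of edgeR 4.0.16 in R 4.3.3, with no covariate. The 5 summary entries of the table were left out of library sizes. The standard error was taken as the size of the log2 fold change divided by the root of the F statistic, and intervals use the degrees of freedom of that test. CPM use the TMM factors. Alternatives were DESeq2 1.42.0, other scalings and filters, the fold cutoff, left-out libraries, the replicate number as a block, smooth curves for GC content and length (mgcv) and the share of reads assigned to no gene as a covariate. The fits were tested on simulated data. Exon words of 31 bases were looked up in 261 alternate contigs. Python 3.11.15 and pandas 2.3.3 made the tables.

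The genes and lists were chosen with earlier results of these data known. The rule for named genes took all 9 receptors, every ligand, *LTK*, *GFRA4*, *ESRRG*, the highest and lowest marker of each list, and, of the pathway genes and other kinases, up to 10 called genes in each direction whose groups were separate and whose mean reached 50 counts. *PLCG1*, *SH2B3*, *BEX3*, *RTN4R* and *GFRAL* were named after their values were seen. Some genes that the rule takes are not reported here. Nothing in the labels says that the libraries of a group come from separate cultures, so p-values measure the spread between these libraries. An exact two-sided permutation test of 3 libraries against 3 cannot give a p below 0.1.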

Additional observations from a re-analysis of the deposited data

Results flagged for a closer look

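Reads that the counting could not assign to a single gene lie outside the comparisons above and were more frequent with *Esrrg*. The lowest *Esrrg* library had 5.69% of such ambiguous reads and the highest 9.84%, against at most 4.87% in the GFP libraries. No group had enough libraries for a test of single outlying values.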

How the results depend on the processing

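The 7 calls among the receptor genes kept their direction and their side of the threshold under all 17 alternatives, of which the setting without a fold cutoff could not lose a call. Their highest adjusted p was 0.0046, for *NTRK3*. *GFRA1* stayed uncalled, with log2 fold changes from 0.18 to 0.82. *NTRK2* (-0.19) was 0.073 without *Esrrg* replicate 2, 0.027 with the replicate block, 0.17 after correcting for GC and length and 0.42 with both. None of these was called, the last (adjusted p = 0.0044 from edgeR) only because of the fold cutoff. *NTRK2* was called lower at -0.76 with the share of reads assigned to no gene as a covariate. With 1 library left out it ran from -0.30 to 0.073. The cause was not tested.

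For pathway genes, against 14 higher and 5 lower, library size only gave 4 and 17, the 1.5-fold threshold 5 and 1, correcting for GC and length 6 and 10, and the replicate block with that correction 8 and 12. The covariate gave 6 higher, and no fold cutoff gave 16 lower. With 1 library left out the lower genes ran from 3, without *Esrrg* replicate 2, to 7. For the other receptor tyrosine kinases, against 6 higher and 11 lower, library size only gave 2 and 17. The 1.5-fold threshold gave 3 lower and the covariate 7 lower.

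Libraries numbered 3 and 4 occur in both groups, and the labels do not say whether those with the same number were handled together. Their deviations from the group means correlated at 0.075 and -0.0001 over genes, and the replicate block changed no call among the receptor genes, with 5 lower and 2 higher. Number 1 occurs only in the GFP group and number 2 only in the *Esrrg* group. The block therefore takes the group difference from the libraries numbered 3 and 4 alone, and its p-values rest on little replication. With the MANE Select length, chosen after seeing the data, 9 of the ranks by level per kilobase differed from those with merged exons. Depth limits *GFRA1*, *GFRA3*, *KIT* and *NGFR*, the genes with the fewest counts.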
